A study of Mus musculus with 30 samples.

Results

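The mouse mitochondrial genome (mtDNA) encodes 13 mRNAs, and the 10 described here, mt-Nd1, mt-Nd2, mt-Nd4, mt-Nd5, mt-Nd6, mt-Cytb, mt-Co1, mt-Co2, mt-Co3 and mt-Atp6, were taken by name from a table of 47643 genes, of which 37 are mtDNA-encoded. The list was set by gene name, but it was chosen with earlier results of these data known. RNA was sequenced from microglia, the resident macrophages of the brain. The study's methods describe CD11b+ CD45med cells sorted from 3-month-old mice and amplified with an unstranded low-input kit, whereas the protocols deposited with the samples describe microglia cultured from newborn pups and a stranded TruSeq kit. The labels give each library its own mouse number and a sex. The methods are followed here, but the files do not settle the conflict. In all, 30 libraries were compared, each from a separate mouse. Bin1, an Alzheimer's disease risk gene that codes for a membrane-curving adaptor protein, had been deleted by Cre recombinase expressed from the Cx3cr1 locus. The 3 genotypes were WT (Bin1 wt/flox without Cre; 5 males and 4 females), Het (Bin1 wt/flox::Cx3Cr1-Cre+; 6 males and 5 females) and Homo (Bin1 flox/flox::Cx3Cr1-Cre+; 5 males and 5 females). WT mice also carried a floxed Bin1 allele, so the 3 genotypes differed in Cre and, in Homo, in a further floxed copy. Cre is knocked in at Cx3cr1, so every Cre+ mouse also has a disrupted Cx3cr1 allele, which cannot be told apart from the loss of Bin1 in comparisons with WT. Libraries are named by genotype, sex and mouse number. Homo-M-0093, Homo-M-0097, Homo-M-0109, Het-M-0100, Het-M-0108 and WT-F-0122 had early numbers, and the other 24 numbers began at that of WT-M-0176. As none of the WT males was early-numbered, an effect of number range cannot be fully told apart from one of genotype in males.

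mtDNA is a small circle that is transcribed from both strands into long precursors. The precursors are cut at the tRNAs that punctuate them, and most of the released mRNAs receive short poly(A) tails. The mRNAs code for core subunits of the respiratory chain. The mt-Nd genes code for subunits of complex I (NADH dehydrogenase), mt-Cytb for cytochrome b of complex III, mt-Co1 to mt-Co3 for the catalytic core of complex IV (cytochrome c oxidase) and mt-Atp6 for a proton channel subunit of the ATP synthase. mt-Nd6 is the only mRNA read from the light-strand precursor. The other 9 come from the heavy-strand precursor, so they start from a shared transcript.

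Several members share sequence with another annotated gene, which sets how well short reads can be assigned to them. A stretch of nuclear DNA at chr1:24611535-24616197 (mm10, minus strand) carries 7 annotated pseudogenes with at least 99% identity to mtDNA genes, and 5 members have their copy there. mt-Co2, mt-Co3 and mt-Atp6 were identical to Gm28661, Gm28437 and Gm10925 over the whole aligned length (681, 783 and 678 bases), and the first 876 bases of mt-Nd4 were identical to Gm28439. mt-Co1 shared its last 483 bases with Gm29216, with a single difference, A1066T, where positions are counted from the first base of mt-Co1. The window around that difference is shown because it contains the only position that separates the pair within that stretch. The first sequence is from chrM:6390-6413 (plus strand), the second from chr1:24616165-24616188 (minus strand), and the capital marks the differing base.
mt-Co1: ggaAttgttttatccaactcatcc
Gm29216: ggaTttgttttatccaactcatcc
No near-identical annotated copy was found for mt-Nd1, mt-Nd2, mt-Nd5, mt-Nd6 or mt-Cytb. Their closest pseudogenes in the table were less alike and none exceeded 1.22 FPKM. The values of the first 5 genes thus depend on how the counting program divided reads that match both places.

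mt-Nd5 (chrM:11742-13565, plus strand) and mt-Nd6 (chrM:13552-14070, minus strand) overlap at their 3′ ends on opposite strands. With the low-input kit of the study's methods, reads from the overlap, or from antisense RNA anywhere along mt-Nd6, could not be assigned by strand. With the stranded kit of the deposited protocol they could, if strand was used in counting, which is not stated, so the values of mt-Nd6 are uncertain in this respect. The ends of the members also differ in their stop codons. Those of mt-Nd4, mt-Co3 and mt-Cytb stop after a single T, which polyadenylation completes to a stop codon, whereas the other 7 encode it in full. The last 30 bases of both overlapping genes (chrM:13536-13565 and, on the minus strand, chrM:13552-13581) and of mt-Co3 (chrM:9361-9390) are given to show both features, with the bases of the last codon in capitals.
mt-Nd5: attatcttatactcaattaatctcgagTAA
mt-Nd6: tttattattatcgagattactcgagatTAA
mt-Co3: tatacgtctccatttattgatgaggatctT

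The values are FPKM, fragment numbers scaled by transcript length and by the mapped fragments of the library. From the steps of low values, the libraries were estimated to hold 6640000 to 13980000 fragments (median 9920000). This puts 374 to 1395 fragments behind mt-Nd6 and 3023 to 9304 behind mt-Co3, so that counting error was small beside the spread between mice. Bin1 was at 230.3 to 289.5 FPKM in WT, and at 39.5 to 55.6 FPKM in Homo. Cx3cr1 was at 1829 to 2344 FPKM in WT. The library labelled Het-F-0206 (Bin1 42.7 FPKM, Cx3cr1 13.9 FPKM) and the library labelled Het-M-0199 (Bin1 51.8 FPKM) lay within the Homo range of Bin1, against their labels. Without both libraries, the median log2 difference of the 10 members described below was 0.24 for Het against WT males, 0.40 for Het against WT females, 0.08 and −0.09 for Homo against Het males and females, and 0.25 for early against later mouse numbers, and none was called in any of these. The 12 microglial markers summed to 19033 to 27808 FPKM in every library, against at most 22.4 FPKM for 8 neuronal and 14.9 FPKM for 5 endothelial markers. Neutrophil markers reached 349 FPKM (WT-M-0202) and choroid plexus markers 440.1 FPKM (WT-M-0177). WT-M-0258 stood apart among WT males in its mtDNA transcripts, as described below, and the main results that rest on it are given with and without it.

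All 10 mRNAs were abundant in every library. Summed over the 10, the level ranged from 2664 to 8674 FPKM, which was 0.560% to 1.70% of the summed FPKM of all genes. In bulk samples, more mtDNA transcript per cell and a different mix of cells or of RNA cannot be told apart. Ordered by median over the 30 libraries, mt-Atp6 (763 FPKM) and mt-Co3 (725 FPKM) led, followed by mt-Cytb (584), mt-Nd1 (565), mt-Co2 (476) and mt-Co1 (410.3 FPKM). The complex I mRNAs mt-Nd4 (212), mt-Nd2 (197.1), mt-Nd5 (152) and mt-Nd6 (104 FPKM) came last. FPKM is scaled per length, but not for reads divided with a nuclear copy or for how well the kit captured each mRNA. Comparisons between genes thus hold only for reads as assigned. The order was nearly the same in each mouse. mt-Co1 lay above mt-Nd4, and mt-Nd2 above mt-Nd5, in 30 of 30 libraries, and mt-Atp6 above mt-Co3 in 26. mt-Cytb and mt-Nd1 could not be ranked, with mt-Cytb higher in 16 of 30 libraries. The median ratio of mt-Atp6 to mt-Nd6 was 7.51. The members varied together: over the 45 pairs, Pearson's r of log2 levels across the 30 libraries, after subtracting group means, ranged from 0.65 to 0.96 with a median of 0.84. These are descriptions, since the genes share libraries and scaling. mt-Nd6 had the lowest median r with the other 9 (0.79) and the largest coefficient of variation (37.4%, against 28.3% for mt-Nd5, the lowest).

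**Figure D1:**
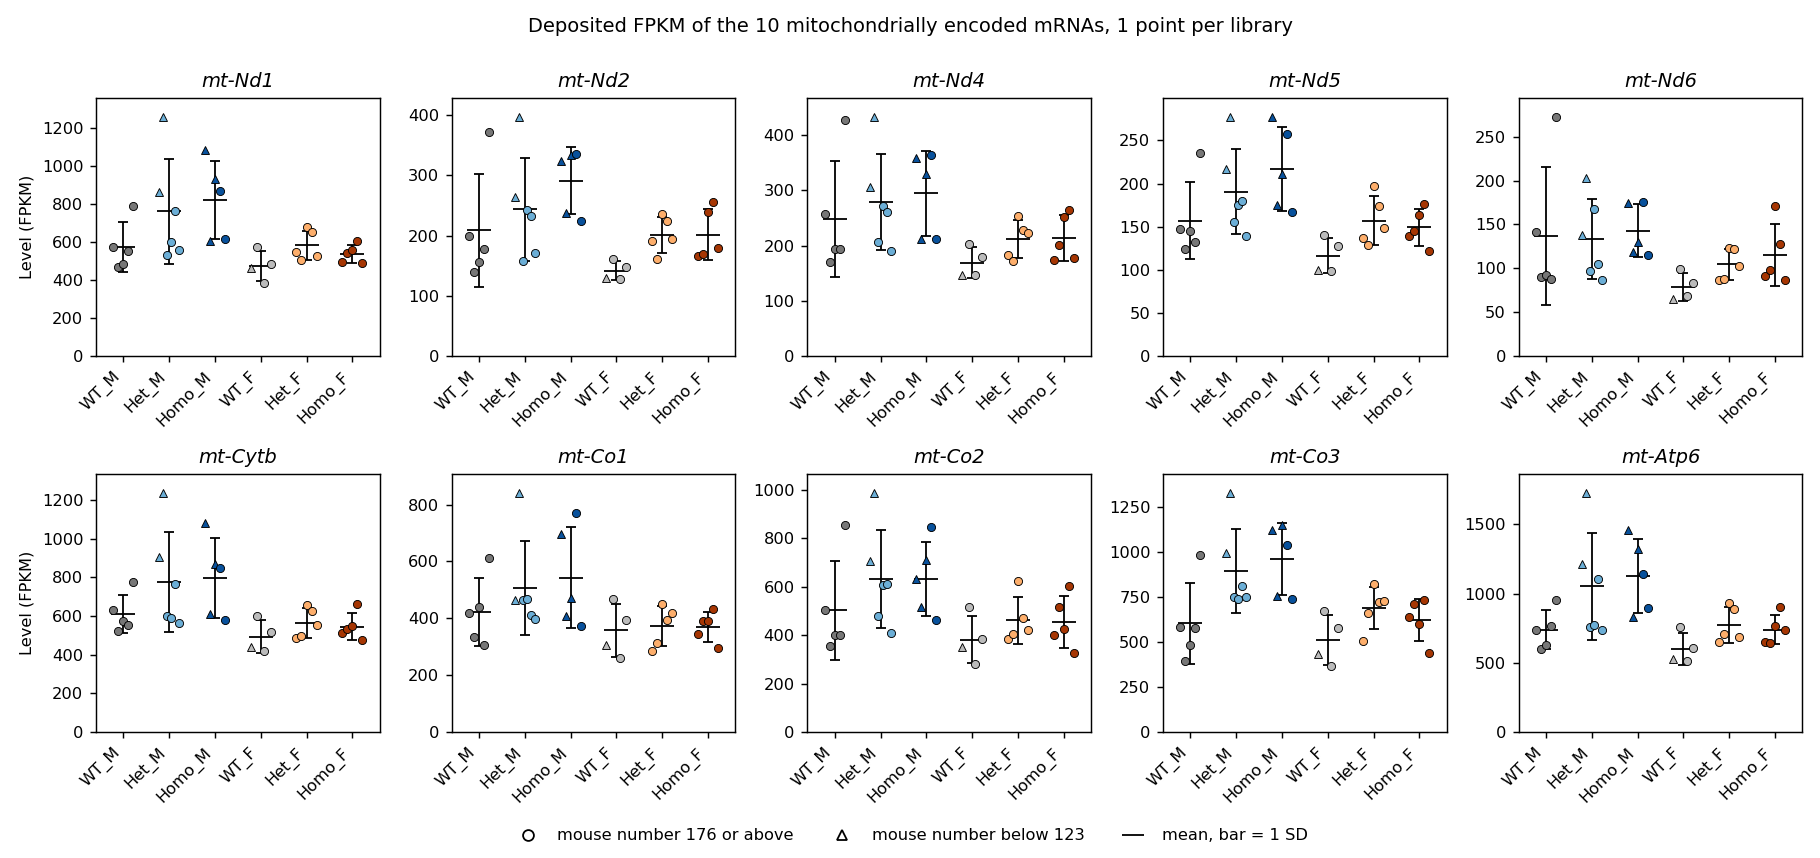
Level of each of the 10 mRNAs (vertical axis, FPKM from 0) in each library by genotype and sex; circles are mice with later numbers, triangles early-numbered mice, dashes group means and bars 1 SD. WT males (grey, left) are spread by the single library WT-M-0258, which holds the highest WT value of every gene, and the highest Het male is the early-numbered Het-M-0108.

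The share of each pair's estimated fragments that had been assigned to the nuclear copy differed from gene to gene. Its median was 49.5% for mt-Co3, 34.8% for mt-Co2, 30.5% for mt-Atp6, 16.5% for mt-Co1 and 1.01% for mt-Nd4. When the copies were added back to their mtDNA gene, mt-Co3 (median 1328 FPKM) passed mt-Atp6 (1077 FPKM) and led in 28 of 30 libraries, and mt-Co2 (718 FPKM) moved above mt-Cytb in 30 of 30. The leading place of mt-Atp6 thus held only for reads as assigned. The share also varied between libraries, from 40.8% to 59.5% for mt-Co3. Its mean for mt-Co3 was 53.9% ± 3.35 in WT males, 50.1% ± 5.15 in Het males and 49.2% ± 3.17 in Homo males (SD, n = 5, 6 and 5), so that genotype differences in mt-Co3 as deposited include a difference in this share.

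**Figure D2:**
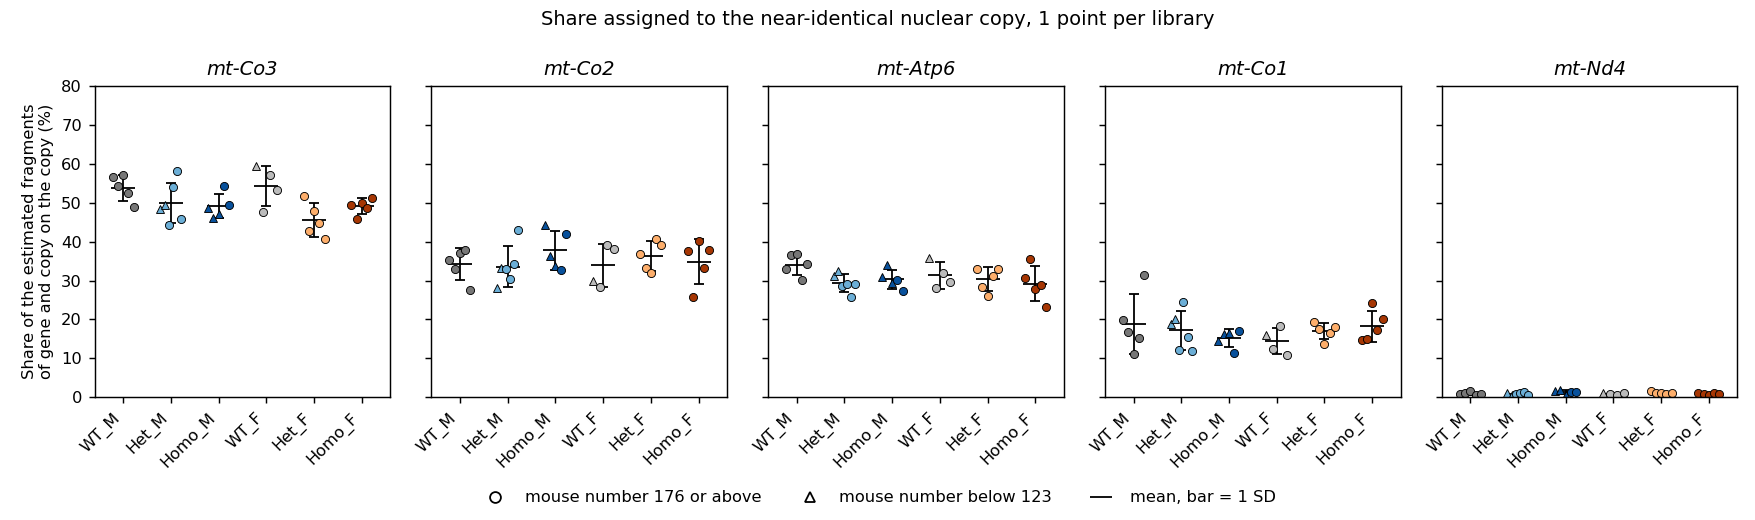
Share of the estimated fragments of each gene and its nuclear copy that was assigned to the copy (vertical axis, percent), for the 5 members with a near-identical copy; points are libraries, dashes group means and bars 1 SD. Identical pairs received between 0.527% (mt-Nd4) and 59.5% (mt-Co3) on the copy, and mt-Co1 is highest in WT-M-0258 (31.4%).

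The first question was whether loss of Bin1 changed the level of mtDNA-encoded mRNAs in males. All 10 members had a higher mean in Homo than in WT males, by a median of 0.35 on the log2 scale, against 0.03 over all 16897 genes tested. None passed an adjusted p of 0.05 in limma's moderated test, in which 2.82% of all genes were called. At an unadjusted p under 0.05, 5 of 10 members were higher, where 12% of all genes were called in that direction and 22.5% in either.

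mt-Co3, a core subunit of cytochrome c oxidase, had the largest difference. It was measured at 394, 483, 576, 584 and 981 FPKM in WT males and at 739, 757, 1036, 1123 and 1150.0 FPKM in Homo males. The 4 lowest WT males lay below every Homo male, and WT-M-0258 lay among them. The log2 difference was 0.63 (SE 0.20, 95% interval 0.22 to 1.04, 1.55-fold), with an adjusted p of 0.0754 by limma. With reads of the nuclear copy added, it was 0.49 (adjusted p = 0.122 by limma). mt-Atp6 was at 599, 631, 738, 768 and 956 FPKM in WT males and at 832, 892, 1140.4, 1319 and 1456 FPKM in Homo males. Its groups overlapped through WT-M-0258 as well, and its difference was 0.51 (SE 0.18, adjusted p = 0.0992 by limma).

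Among the complex I members, mt-Nd2 was at 139, 157, 177.8, 198.8 and 371 FPKM in WT males and at 224, 238.3, 325, 335 and 335 FPKM in Homo males. Again the 4 lowest WT males lay below the Homo males, and WT-M-0258 lay above all 5. The difference was 0.47 on the log2 scale for mt-Nd2, 0.42 for mt-Nd1 and 0.40 for mt-Nd5, each with an unadjusted p under 0.05 and an adjusted p between 0.151 and 0.175 in limma. The other 5 members differed by 0.11 (mt-Nd6) to 0.29 (mt-Co2). mt-Nd6 was lower in Homo males by 0.02 when WT-M-0202 was left out.

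The outcome in males turned on WT-M-0258. Without it, the median difference of the 10 members was 0.51, and 2 of 10 were called by limma, mt-Co3 (0.81, adjusted p = 0.0251) and mt-Nd2 (0.69, adjusted p = 0.0454), where 2.02% of all genes were called (1.06% higher). With the nuclear copies added as well, mt-Co3 was no longer called (0.63, adjusted p = 0.0638) while mt-Nd2, which has no such copy, was (0.69, adjusted p = 0.0455; 2% of all genes called). Among the 9 WT libraries WT-M-0258 had the highest Bin1 (289.5 FPKM) and the lowest Cx3cr1 level (1829 FPKM), and it was kept in the main comparison. When only mice with later numbers were compared, the median difference was 0.38 and none of 10 was called, with 2 Homo males left and 0.0592% of all genes called.

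Het males lay between. Of the 10 members, 9 had a higher mean than in WT males, with a median of 0.22 against 0.01 over all genes, and none was called by limma (0.172% of all genes were). At an unadjusted p under 0.05, 2 of 10 were higher, where 7.47% of all genes were (14.2% in either direction), namely mt-Co3 (0.53, SE 0.19, adjusted p = 0.268 by limma) and mt-Atp6 (0.38, SE 0.17, adjusted p = 0.329 by limma). With reads of the nuclear copies added, mt-Co3 was at 0.42 and mt-Atp6 at 0.28, and mt-Co3 alone of these remained below the unadjusted threshold. The lowest, median and highest mt-Co3 values in Het males were 740.1, 780.2 and 1325 FPKM, and all 6 lay above the WT median of 576 FPKM. mt-Nd6 was 0.03 lower than in WT, a sign that turned without scaling (0.05 higher) and without WT-M-0258 (0.25 higher). Among Het males, the early-numbered mice had the highest summed levels. Summed over the 10 members, Het-M-0100 and Het-M-0108 were at 6070.1 and 8674 FPKM, and the 4 with later numbers at 3999, 4199, 4639 and 5244 FPKM. Among later-numbered mice alone the median difference of Het from WT males was 0.06, and without Het-M-0108 it was 0.10. Without WT-M-0258 it was 0.38, the largest value with any single library left out.

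**Figure D3:**
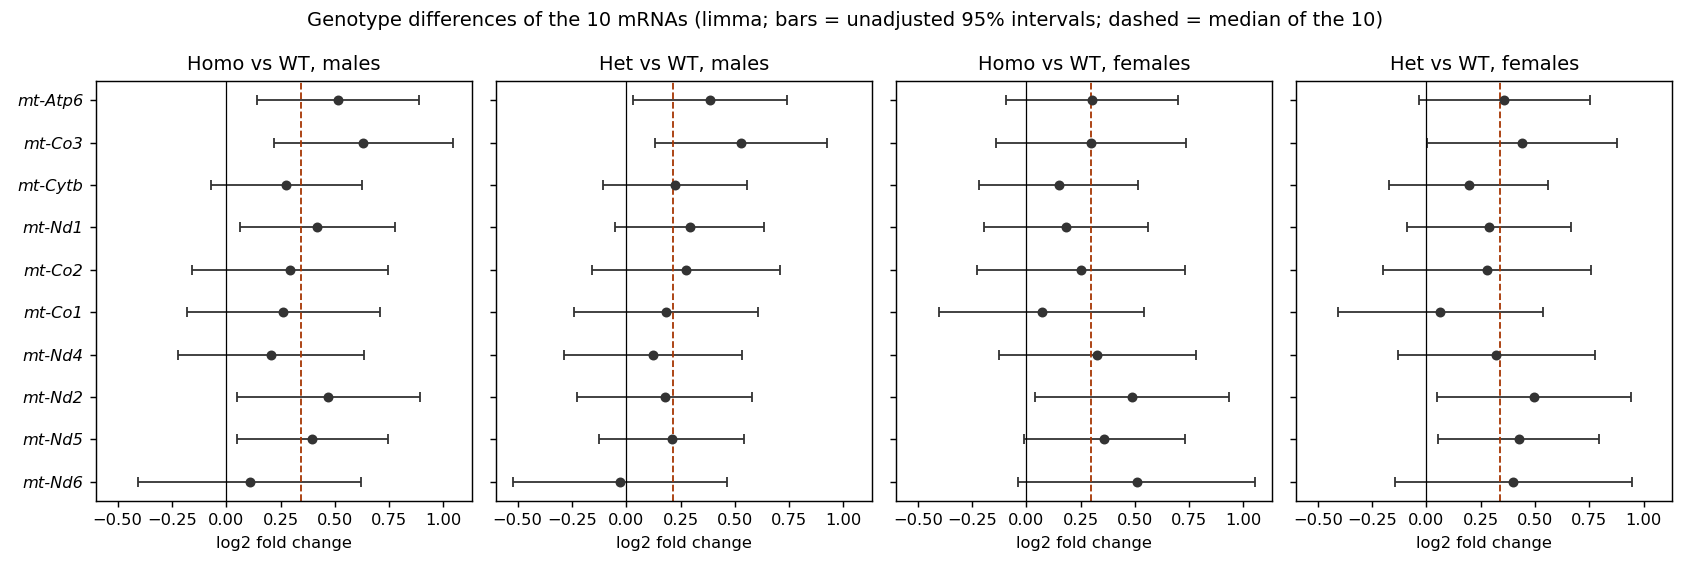
log2 fold change of each mRNA against WT of the same sex (horizontal axis), with unadjusted 95% intervals from limma; the dashed line is the median of the 10. Of 40 points, 39 lie to the right of 0, but most intervals include 0 and none passes the adjusted threshold. The points are not independent, since the genes vary together and comparisons within a sex share WT mice. Over all genes, 53.6% of differences were positive in Homo males, 51.9% in Het males, 50.3% in Homo females and 50.2% in Het females.

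Females gave differences of a like size. In Homo females all 10 members had a higher mean than in WT females, with a median of 0.30 against 0.00 over all genes, and in Het females all 10 did, with a median of 0.34 against 0.00. With 4 WT females, the median in Homo females ranged from 0.19 (without WT-F-0200) to 0.43 (without WT-F-0192). None was called in either comparison by limma, in which 0.071% and 0.136% of all genes were. The sole unadjusted p under 0.05 in Homo females was that of mt-Nd2 (2.31% of all genes were higher at that threshold and 3.49% differed in either direction). In Het females, 3 of 10 were below it (2.62% of all genes higher, 3.95% in either direction), mt-Nd2, mt-Nd5 and mt-Co3.

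mt-Nd2 was at 129, 129.6, 147 and 162 FPKM in WT females, at 161, 191, 195, 225 and 236 FPKM in Het females and at 166, 169, 179, 239 and 256 FPKM in Homo females. The highest WT female lay just below the lowest Homo female and just above the lowest Het female. After scaling between libraries the Homo and WT ranges overlapped (lowest Homo 166, highest WT 167 scaled FPKM). On these scaled values no member was without overlap between groups in any genotype comparison, where 1.62% of all genes were higher without overlap in Homo females, 1.49% in Het females, 2.25% in Homo males and 0.444% in Het males. The log2 difference of mt-Nd2 was 0.49 (SE 0.22) in Homo and 0.50 (SE 0.22) in Het females, with an adjusted p of 1 in limma for both. mt-Co3 was at 366, 433, 578 and 674 FPKM in WT females, 508, 659.7, 722, 728 and 821 FPKM in Het females and 439, 600.3, 636, 710.4 and 731 FPKM in Homo females. These ranges overlapped widely, and its difference was 0.30 in Homo and 0.44 in Het females (SE 0.21 for both). With reads of the nuclear copy added, it was 0.13 in Homo and 0.18 in Het females (SE 0.20 for both), and in Het females it no longer passed the unadjusted threshold. mt-Co1 differed least, by 0.07 in Homo and 0.06 in Het females, and fell to −0.01 in both when WT-F-0122, the early-numbered WT mouse, was left out. All these comparisons within a sex share the same WT mice, so the like sign in Het and Homo is not independent.

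Between Homo and Het, which are both Cre+ and differ by label in Bin1 dose, the members differed little. The labels do not give the number of Cre copies, and Het-F-0206 had a Cx3cr1 level far below WT. A difference in Bin1 dose alone is thus not assured. The median was 0.12 in males (10 of 10 higher in Homo) and −0.04 in females (3 of 10 higher), with 95% intervals of single members reaching from −0.42 to 0.70 in males and from −0.56 to 0.62 in females. None was called by limma or had an unadjusted p under 0.05 (0% and 0.0118% of all genes called, and 3.85% and 2.06% at the unadjusted threshold). A test of whether the genotype difference itself differed between males and females gave a median of 0.09 for Homo and 0.00 for Het, with no member called or under an unadjusted p of 0.05, and 0% of all genes called in either. At the unadjusted threshold 9.29% and 4.53% of all genes passed. Without WT-M-0258 these medians were 0.22 and 0.11, and without WT-F-0192 that for Homo was −0.02. Higher levels in 1 sex only were therefore not shown.

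In WT mice all 10 members had a lower mean in females than in males, with a median of −0.32 against −0.01 over all genes. None was called by limma (0.0473% of all genes were). At an unadjusted p under 0.05, 4 of 10 were lower, where 1.9% of all genes were (2.91% in either direction). These were mt-Nd6 (−0.65, SE 0.27), mt-Nd4 (−0.48, SE 0.22), mt-Nd2 (−0.46, SE 0.22) and mt-Nd5 (−0.40, SE 0.18), all subunits of complex I, each with an adjusted p of 1 in limma. The remaining complex I member, mt-Nd1, differed by −0.25 (SE 0.18), less than mt-Co2 (−0.35), mt-Cytb (−0.30) and mt-Atp6 (−0.29). mt-Nd6 was at 65.1, 68.3, 83.2 and 99.5 FPKM in WT females and at 88.4, 89.9, 92.3, 141 and 272 FPKM in WT males. Without WT-M-0258 its difference was −0.38 and the median of the 10 members −0.21. Those of mt-Nd4, mt-Nd2 and mt-Nd5 were then −0.27, −0.24 and −0.25, so the sizes of all 4 rested in part on that library.

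All 10 mRNAs had a higher mean in early-numbered than in later-numbered Cre+ males in a model that held genotype constant. The median was 0.24, against 0.10 over all genes. Without scaling between libraries both rose, to 0.39 and 0.23. None of 10 was called by limma and none had an unadjusted p under 0.05, in a contrast where 14.6% of all genes were called and 33.8% passed the unadjusted threshold. The largest differences were those of mt-Atp6 (0.37, SE 0.20, adjusted p = 0.201), mt-Cytb (0.37, SE 0.18, adjusted p = 0.185) and mt-Nd1 (0.37, SE 0.19, adjusted p = 0.204), all by limma. With reads of the nuclear copies added, mt-Atp6 was at 0.44 (unadjusted p = 0.0489, adjusted p = 0.146 by limma). mt-Co1 then rose from 0.10 to 0.14, whereas mt-Co3 fell from 0.25 to 0.16 and mt-Co2 from 0.20 to 0.15. The summed level was 7372 FPKM in the 2 early and 4520 FPKM in the 4 later Het males, and 6045 FPKM in the 3 early and 5507 FPKM in the 2 later Homo males. The difference was thus larger in Het males, where both early libraries, at 6070.1 and 8674 FPKM, lay above all 4 later ones. Het-M-0108 was the highest of all libraries. Without Het-M-0108 the median of the contrast was 0.06, and without Homo-M-0189, the later-numbered library with the most, it was 0.44. In WT females the single early mouse, WT-F-0122, was at 2959.7 FPKM and the other 3 were at 2664, 3498 and 4202 FPKM.

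Malat1 and Neat1, long noncoding RNAs that stay in the nucleus, were also higher in early-numbered Cre+ males, by 1.05 (adjusted p = 0.0497) and 1.14 (adjusted p = 0.0208) on the log2 scale by limma. Without the libraries against their labels the adjusted p of Malat1 was 0.0838 by limma. Mean Malat1 also differed by genotype in males, at 4006 FPKM in WT, 6927 FPKM in Het and 8276 FPKM in Homo. In females these means were 3284, 3818 and 3950 FPKM. Summed neuronal markers were highest in Het-M-0108 too, at 22.4 FPKM, as were oligodendrocyte markers, at 174 FPKM. Across all 30 libraries, after group means were subtracted, the mean log2 level of the 10 members had a Pearson's r of 0.33 with Malat1 and 0.25 with Neat1. Markers of cell types moved in this contrast too. None of 12 microglial markers had a higher mean in early-numbered mice (median −0.49), and Olfml3 was called lower by limma (−0.62). All 6 astrocyte markers had a higher mean (median 1.02), with Gja1 called (1.94), and the oligodendrocyte genes Mbp (1.31) and Mobp (1.89), the neutrophil gene S100a8 (4.82) and the macrophage gene Pf4 (0.89) were called higher. The endothelial gene Pecam1 was called lower (−0.61). The part of these in the members' levels was not tested.

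**Figure D4:**
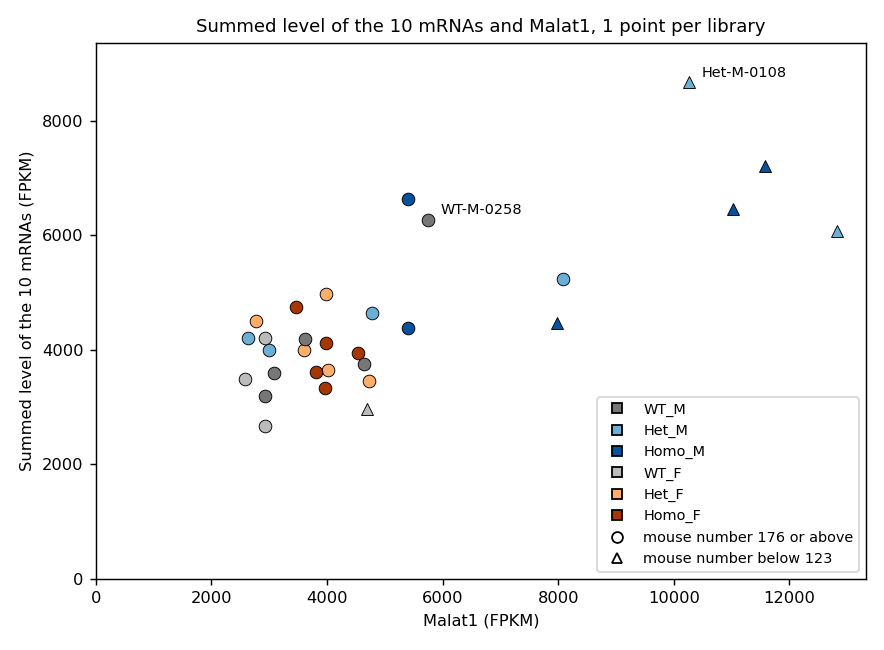
Summed level of the 10 mRNAs (vertical axis, FPKM) against Malat1 (horizontal axis, FPKM), 1 point per library, coloured by group; triangles are early-numbered mice. The 5 early Cre+ males have 7970 to 12821 FPKM of Malat1 but range from 4476 to 8674 FPKM for the 10 mRNAs, whereas WT-M-0258 is high in the 10 mRNAs at a Malat1 level of 5752 FPKM.

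The light-strand mRNA mt-Nd6 was then set against the mean log2 level of the 9 heavy-strand members within each library, which removes what all 10 share. It lay 1.86 ± 0.25 below them on the log2 scale over all libraries (SD, n = 30). The relative level was −1.65 ± 0.33 in WT, −1.95 ± 0.28 in Het and −1.93 ± 0.16 in Homo males (SD, n = 5, 6 and 5). In females it was −1.98 ± 0.08 in WT, −1.90 ± 0.06 in Het and −1.74 ± 0.30 in Homo (SD, n = 4, 5 and 5). Within each sex, the means of Het and Homo differed from WT by no more than the larger of these spreads, and no test was run on this ratio. Without WT-M-0258, Het and Homo males differed from WT males by −0.17 and −0.15. The spread came from a few libraries. WT-M-0258 (−1.16), Homo-F-0228 (−1.20) and Het-M-0199 (−1.40) were the highest, followed by WT-M-0176 (−1.49), whereas the other 26 lay between −2.20 and −1.74.

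The same 3 libraries were highest in 3 further quantities. Relative to the 9 heavy-strand members, the small ribosomal RNA mt-Rnr1 was at −0.52, −1.23 and −0.89, and the large ribosomal RNA mt-Rnr2 at 1.18, 0.707 and 0.992, in WT-M-0258, Homo-F-0228 and Het-M-0199. The next library was at −1.29 for mt-Rnr1 and, close to Homo-F-0228, at 0.706 for mt-Rnr2. The share of the mt-Co1 pair on Gm29216 was 31.4%, 24.4% and 24.4% in these libraries, against at most 20.2% in the others. They carry 3 different genotype labels and come from both sexes. The cause was not tested.

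**Figure D5:**
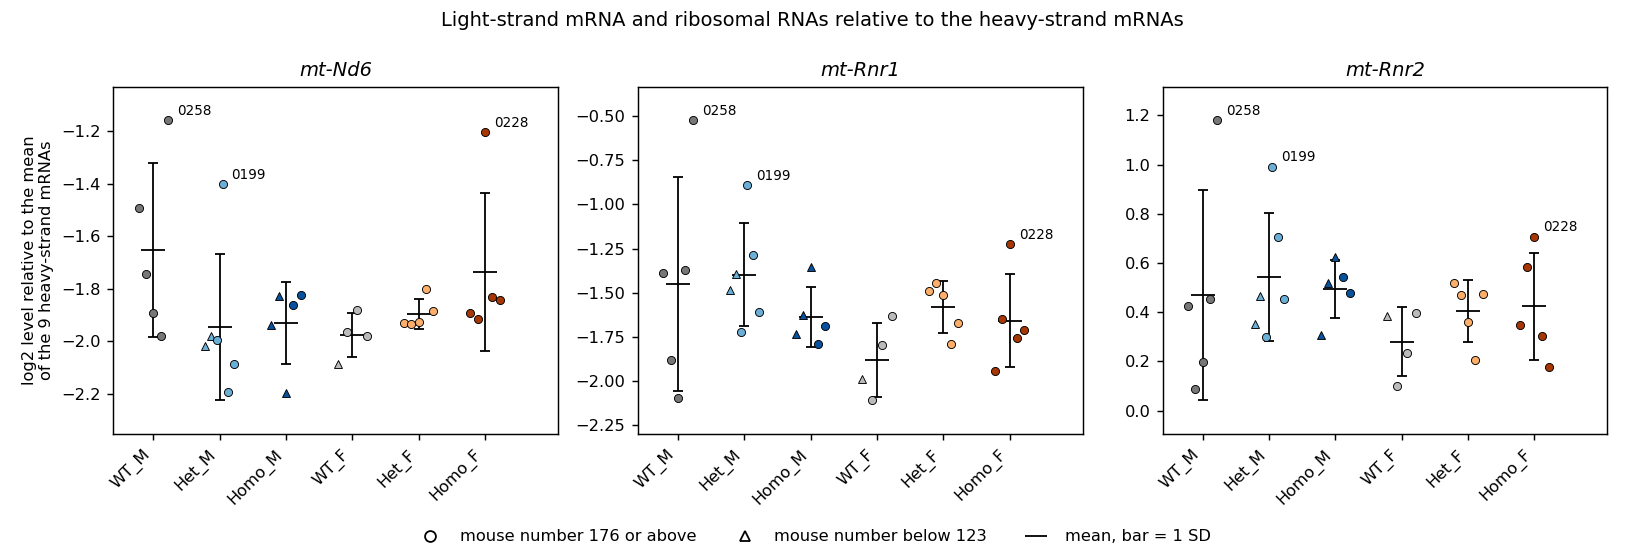
log2 level of mt-Nd6, mt-Rnr1 and mt-Rnr2 relative to the mean of the 9 heavy-strand mRNAs of the same library (vertical axes, each with its own range), by group; points are libraries, dashes group means and bars 1 SD. Libraries WT-M-0258, Het-M-0199 and Homo-F-0228 are labelled and are the highest 3 in each panel.

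Of the other 3 mtDNA mRNAs, mt-Atp8 was called higher in Homo than in WT males, where 2.82% of all genes were called. It codes for a small subunit of the ATP synthase and shares its transcript, and 43 bases, with mt-Atp6. Those 43 bases also lie in Gm10925, so some of its reads could be divided with that copy. mt-Atp8 was at 227, 242, 243, 256 and 306 FPKM in WT males and at 368, 394, 431, 433 and 521 FPKM in Homo males, without overlap. On scaled values, 2.25% of all genes were higher without overlap in Homo males. In contrast to the 10 members, the lowest WT male value of mt-Atp8 was that of WT-M-0258. The difference was 0.67 (SE 0.18, adjusted p = 0.0381 by limma), and the call was lost at a like size without WT-M-0258 (0.62, adjusted p = 0.0727 by limma) and among later-numbered mice (0.70, adjusted p = 0.232 by limma), and at 0.51 with number range as a covariate (adjusted p = 0.382 by limma). mt-Atp8 is 204 bases long, the shortest of the mtDNA mRNAs. mt-Nd3, mt-Nd4l, mt-Rnr1 and mt-Rnr2 were not called in any comparison of a Cre+ genotype with WT. mt-Nd4l could not be read alone, since a median of 80.4% of its pair's fragments was assigned to the identical Gm10222.

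Of 160 genes for mtDNA transcription, replication, RNA processing, RNA stability, mitochondrial translation and the mitochondrial ribosome, 3 were higher and 2 lower in Homo than in WT males by limma, which is 3.13% of the list against 2.82% of all genes, with a median of 0.00. Mterf1a and Mterf3, members of the mitochondrial transcription termination factor family, were higher by 0.82 (adjusted p = 0.0127) and 0.46 (adjusted p = 0.0474), as was Pnpt1, a mitochondrial RNA exonuclease and import factor, by 0.41 (adjusted p = 0.0407). Tufm, the mitochondrial elongation factor Tu, was lower by 0.51 (adjusted p = 0.0325), and Exog, a mitochondrial nuclease, by 0.46 (adjusted p = 0.0319). Without WT-M-0258, Mterf1a and Exog alone were called, and among later-numbered mice none of the 5 was, with adjusted p values of 0.438 to 0.79 in limma. There, Exog (−0.43) and Pnpt1 (0.43) kept about their size, whereas Mterf1a (0.55), Tufm (−0.31) and Mterf3 (0.21) were closer to 0. Of 76 nuclear subunits of the respiratory chain, 1 was called in Homo males, Uqcrc1 of complex III (−0.45, adjusted p = 0.0309), which was not called without WT-M-0258 (adjusted p = 0.0584). No gene of either list was called in Het males or in females of either genotype. Cell type markers also differed between Homo and WT males. Of 7 neutrophil markers tested, 4 were lower by limma, including Lcn2 (−4.73) and Ngp (−6.07), and their summed level was 43.9 to 349 FPKM in WT and 0 to 80.8 FPKM in Homo males. Among later-numbered mice Lcn2 (−5.06, adjusted p = 0.164) and Ngp (−7.15, adjusted p = 0.143) were not called by limma. The oligodendrocyte gene Cnp was called lower (−0.49, adjusted p = 0.04997 by limma). It was not called by limma without WT-M-0258 (adjusted p = 0.0664) or among later-numbered mice (−0.21, adjusted p = 0.785). Mean Mbp (14.7 FPKM in WT, 26.4 FPKM in Homo males) and mean Mobp (2.18 and 4.75 FPKM) went the other way. The summed oligodendrocyte markers had medians of 69.3 FPKM in WT and 68.9 FPKM in Homo males. No marker of the other types was called, but all 5 erythroid markers had a higher mean in Homo males (median 3.35), and all 6 border macrophage (median −0.80) and 5 choroid plexus markers tested (median −2.40) a lower one. Their part in the members' levels was not tested.

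In the contrast of early with later mouse numbers, 13 of the 160 genes were higher and 8 lower, and 9 of the 76 respiratory chain genes were lower and none higher. These are 13.1% and 11.8% of the lists, against 14.6% of all genes called in either direction in this contrast. Over all 16897 genes, 1477 were called higher and 982 lower, whereas the 9 respiratory chain calls were all lower. Among them were Atp5a1 (−0.63, adjusted p = 0.027), Atp5g2 (−0.80, adjusted p = 0.0254) and Atp5b (−0.45, adjusted p = 0.0295) of the ATP synthase and Sdhc of complex II (−0.45, adjusted p = 0.0266), by limma. Among the higher genes were Polg, the mtDNA polymerase (0.74, adjusted p = 0.0219), and Trmu, a mitochondrial tRNA-modifying enzyme (0.96, adjusted p = 0.0219). Lars2, the mitochondrial leucyl-tRNA synthetase, was lower (−1.24, adjusted p = 0.0228). Without the libraries against their labels, 6 and 3 of the 160 and 3 of the 76 were called.

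Finally, the nuclear genes whose levels ran most nearly parallel to the 10 members were listed. Pearson's r with the mean log2 level of the members was taken over the 30 libraries after group means were subtracted, among 11592 nuclear genes with a mean of at least 1 FPKM. Nuclear copies of mtDNA genes found by sequence were left out of this set. The highest were Cpsf7 (0.73), Purb (0.73), Fra10ac1 (0.73), Hnrnpa3 (0.72) and Pura (0.70). Cpsf7 is part of the cleavage factor that acts on mRNA 3′ ends, Purb and Pura bind purine-rich nucleic acids, and Hnrnpa3 is a nuclear RNA-binding protein. The lowest were Rbl1 (−0.73), Prps1l3 (−0.73), Pla2g4a (−0.72), Vps35 (−0.72) and Chm (−0.71). Vps35 is a subunit of the retromer sorting complex, Pla2g4a a cytosolic phospholipase and Chm a Rab escort protein. Without WT-M-0258 these values ranged from 0.60 to 0.68 and from −0.70 to −0.64. By the same measure the mitochondrial ribosomal RNAs mt-Rnr2 (0.86) and mt-Rnr1 (0.82) lay above all of these 11592 nuclear genes, and mt-Nd3 (0.64) and mt-Atp8 (0.57) below the first 5. The genes share each library's depth, scaling and RNA quality, and these values are descriptions.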

How the data were processed

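Per the study's methods, microglia RNA was amplified with an oligo-dT, unstranded low-input kit (the deposited protocols name a stranded TruSeq kit), and the authors aligned reads with OmicSoft OSA4 to mm10 and the Ensembl.R84 gene model, estimated expression with RSEM and deposited a table of FPKM, a unit that is normalized for length and library size and holds no counts. The table's 6 columns that match no listed sample were not used. Depth was estimated from the steps of values below 10 fragments (66.5% to 73.3% of them whole within 0.05 fragments), and shares of fragments were approximated as FPKM times annotated length. FPKM were scaled by median of ratios, genes with a mean of at least 0.1 FPKM were kept (16897), and log2(FPKM + 0.1) was fitted in limma 3.58.1 (R 4.3.3) with 1 mean per group over all 30 libraries and two-sided tests. Fold changes are on that scale. p-values were adjusted by Benjamini-Hochberg over all genes tested, with a threshold of 0.05. In data simulated for Homo against WT males over 16897 genes, 59% of genes changed 1.5-fold and 100% of those changed 2.5-fold were called. The changed genes were drawn from highly expressed genes, with noise independent between genes. These shares are thus not the power for the 10 members, which vary together. Near-identical nuclear copies were found with BLAST 2.17.0 between GENCODE M21 transcripts (GRCm38, the mm10 assembly). Figures were drawn with matplotlib 3.10.9. The 10 members and all gene lists were chosen with earlier results of these data known. Named were the members, the other mtDNA RNAs, called genes of the lists (up to 3 a list and direction), the nuclear copies, and the 5 nuclear genes with the highest and lowest r. Alternatives were pseudocount, filter, scaling, number range, libraries against their labels, each library left out, and, chosen after seeing the data, copies added and WT-M-0258 left out together with copies added.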

Additional observations from a re-analysis of the deposited data

Results flagged for a closer look

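Dixon's test was run on 66 sets of values, each member and the summed level in the 6 groups, and 4 had an extreme sample; chance alone gives about 1 in 20. In WT males, WT-M-0258 was far above the other 4 for mt-Nd2 (371 FPKM, next 198.8 FPKM), mt-Nd5 (235 FPKM, next 148 FPKM) and mt-Nd6 (272 FPKM, next 141 FPKM). In Het males, Het-M-0108 was far above the other 5 for mt-Co1 (840 FPKM, next 469 FPKM). WT-M-0258 also had the highest relative level of both mitochondrial ribosomal RNAs, and Het-M-0108 the highest summed neuronal and oligodendrocyte markers. Whether either moved with the members' levels for a shared reason was not tested.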

How the results depend on the processing

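No paired analysis was possible because every mouse has its own number, so groups share none. Of 2220 refits of a member in a comparison under an alternative, 2071 kept the sign and the side of the threshold, 146 changed sign and 3 became called. The number of members called in Homo against WT males was 0 to 2 with each library left out in turn (2 without WT-M-0258), and 1 with copies added and WT-M-0258 left out; in the other comparisons it was 0 throughout. Among later-numbered mice alone, Het against WT males gave −0.0065 for mt-Nd2 and −0.045 for mt-Nd4, and mt-Co1 was −0.0052 in Homo and −0.011 in Het females. mt-Nd6 in Het males was 0.046 without scaling and 0.25 with copies added and WT-M-0258 left out. With each library left out in turn, differences that changed sign ranged from −0.020 to 0.38 (mt-Nd6, Homo males), −0.16 to 0.25 (mt-Nd6, Het males), −0.0032 to 0.33 (mt-Nd4, Het males), −0.069 to 0.22 (mt-Co1, Homo females) and −0.075 to 0.21 (mt-Co1, Het females). For early against later numbers they ranged from −0.051 to 0.34 (mt-Nd6), −0.16 to 0.35 (mt-Co1) and −7.06e-06 to 0.44 (mt-Co2), and the median of the 10 from 0.063 to 0.44. The mt-Nd6 level in Het minus WT females was 0.08 relative to the 9 heavy-strand members and 0.34 relative to mt-Co1 alone. The cause of these changes was not tested. Depth did not limit the members, but groups held 4 to 6 mice. FPKM hold no counts, so no count model was run.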
